A study of Mus musculus with 14 samples.

Results

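Skeletal muscle of control (CT) mice fed a Western diet (WD) was compared with that of CT mice fed a control diet (CTD) across all expressed genes, by 6 of the 14 RNA-seq libraries of the series. By their labels, 3 libraries were CT-WD and 3 were CT-CTD. The other 8, from mice that overexpress c-Myc in endothelial cells (EC-Myc OE), 4 per diet, entered only the shared estimate of spread and the comparison of genotypes. All mice were FVB/N males. CT mice were littermates with the Tet-O-Myc genotype that lacked the Cdh5-tTA transactivator, so they carried a human c-Myc transgene without the endothelial protein that switches it on. Doxycycline diet was withdrawn from both genotypes between 4 and 6 weeks of age. The diets were Teklad TD.08485 (CTD) and TD.88137 (WD). The labels give a diet period of 20 weeks, the study's account of the muscle transcriptomes gives a shorter one, and neither gives the age at collection. Soleus and gastrocnemius were both taken in the study, and no label says which muscle a library holds. Nothing states that the libraries come from separate animals, and in the library names 3 of the EC-Myc OE libraries on CTD share a number, as do all 4 on WD, so p-values measure only the spread between these libraries. The study describes group sizes that differ by diet, and the labels give sizes that differ by genotype, so the labels are in doubt. For Zbtb16 and Acsl3, the study's fold changes between genotypes on WD also equal the labelled diet values of EC-Myc OE (log2 1.23 and 0.65). Exchanging the names of CT-WD and EC-Myc OE on CTD gives the group sizes that the study describes. Values given by the labels as diet effects in CT would then compare genotypes on CTD instead. All values below follow the labels.

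Whole muscle RNA comes mostly from large multinucleate fibres, and the rest from capillary endothelium, fibroblasts, macrophages, satellite cells, nerve and any attached tendon or fat. Muscle burns glucose and fatty acids, and its genes follow fuel supply through PPAR receptors, insulin signaling and its Foxo factors, the glucocorticoid receptor, the circadian clock and contraction. A Western diet, rich in fat, sucrose and cholesterol, reaches several of these pathways at the same time.

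Levels below are CPM (counts scaled to library size and by the trimmed mean of M-values), in the order of replicates 1, 2 and 3 of each group, and differences are log2 fold changes of CT-WD minus CT-CTD ± SE. Total counts ran from 21833839 (CT-WD 2) to 26518734 (CT-WD 1), and 15458 of 54532 genes had enough counts to be tested. The genes with the smallest p-values that were higher on WD were Egfr, Sik1, Pim3, Cntfr and Trim63, and those lower on WD were Dbp, St3gal1, Pdp1, Cldn34c1 and Slc25a30. No gene passed a fold over 1.5 with an adjusted p under 0.05 by edgeR's quasi-likelihood test with Benjamini-Hochberg adjustment, the smallest adjusted p being 0.277. At an unadjusted p under 0.05, 1125 genes passed at any fold and 471 (3.05% of those tested) passed with a fold over 1.5, called here the unadjusted level. Of these, 335 (2.17%) were higher and 136 (0.88%) lower in CT-WD. Every count of list members past this level is to be read beside these shares, and no list was tested as a set. The same adjusted rule gave 26 genes by DESeq2, run on 27882 genes without that filter, 3 by limma voom with quality weights (Trim63, Pim3 and St3gal1) and 0 by limma on FPKM. Leaving out CT-WD 1 gave 41 by edgeR and 860 at the unadjusted level, now 385 higher and 475 lower, and leaving out CT-WD 2 gave 1, Nr4a3. With the replicate number as a block in the 6 CT libraries alone 1 gene passed, Slc25a25. With the names of CT-WD and EC-Myc OE on CTD exchanged, 295 genes passed. The exchanged names give the group sizes that the study describes, and its fold changes for Zbtb16 and Acsl3 equal labelled diet values of EC-Myc OE. Which names are right was not tested. Of 250 named genes 85 turned sign, 33 of them past the unadjusted level under either set of names, among these Trim63 (-0.27), Dbp (0.60) and Zbtb16 (-1.02). The median over all tested genes was 0.01, with the middle of the distribution between -0.13 and 0.15, and 51.5% were above 0.

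Trim63 (ENSMUSG00000028834, chr4:134315120-134329629, plus strand in mm10), the muscle ubiquitin ligase MuRF1, was at 335, 305 and 259 CPM on CTD and 407, 948 and 863 CPM on WD. All CT-WD libraries lay above all CT-CTD libraries, with CT-WD 1 nearest to them. Its means were 299.8 ± 38.2 and 739.6 ± 291 CPM (SD, n = 3 each), a log2 fold change of 1.30 ± 0.26. Sik1 (ENSMUSG00000024042, chr17:31844248-31855792, minus strand), a kinase that restrains CREB coactivators, was at 22.03, 23.5 and 26.2 CPM on CTD and 47.4, 46.3 and 90.0 CPM on WD. The groups did not overlap, CT-WD 3 was the highest, and the log2 fold change was 1.36 ± 0.25. Egfr (ENSMUSG00000020122, chr11:16752203-16918158, plus strand), the epidermal growth factor receptor, was at 7.28, 5.06 and 6.35 CPM on CTD and 14.2, 9.66 and 12.003 CPM on WD. Every CT-WD library exceeded every CT-CTD library, with CT-WD 1 the highest, and the log2 fold change was 0.94 ± 0.17. Pim3 (ENSMUSG00000035828, chr15:88862186-88865726, plus strand), a serine and threonine kinase, gave 73.1, 55.6 and 68.0 CPM on CTD and 85.3, 119 and 148 CPM on WD, again without overlap (0.84 ± 0.16). Cntfr (ENSMUSG00000028444, chr4:41657498-41697089, minus strand), the receptor subunit for ciliary neurotrophic factor, gave 22.3, 17.1 and 15.8 CPM on CTD and 28.0, 29.3 and 34.7 CPM on WD. Its groups did not overlap either (0.74 ± 0.15).

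Among the lower genes, Dbp (ENSMUSG00000059824, chr7:45705088-45710203, plus strand), an output factor of the clock, was at 73.4, 87.1 and 99.8 CPM on CTD and 59.6, 48.0 and 37.3 CPM on WD. No library of either group reached the range of the other, and the log2 fold change was -0.84 ± 0.17. Sphk2 lies antisense to it at a mean of 19.2 CPM, and reads of that pair may not be told apart because no source states the strand setting. St3gal1 (ENSMUSG00000013846, chr15:67102875-67176830, minus strand), a sialyltransferase, was at 38.8, 75.5 and 71.7 CPM on CTD and 38.3, 19.9 and 28.5 CPM on WD. Replicate 1 was almost equal on both diets, and replicates 2 and 3 were lower on WD (-1.10 ± 0.23, and -1.36 without CT-WD 1). Slc25a30 (ENSMUSG00000022003, chr14:75760117-75787037, minus strand), a mitochondrial carrier, was at 23.9, 28.8 and 40.5 CPM on CTD and 13.7, 20.1 and 11.7 CPM on WD, without overlap (-1.04 ± 0.24). Pdp1 (ENSMUSG00000049225, chr4:11958184-11966452, minus strand), the phosphatase that activates pyruvate dehydrogenase, was at 68.3, 72.8 and 78.3 CPM on CTD and 53.3, 49.8 and 30.6 CPM on WD. The groups did not overlap (-0.71 ± 0.15), and the gene missed the unadjusted level without CT-WD 3 (-0.50). Cldn34c1 was low in all libraries, at 0.395, 0.460 and 0.874 CPM on CTD and 0.0723, 0.0483 and 0.0889 CPM on WD (-2.95 ± 0.63). Each of these 10 genes had an adjusted p of 0.277 to 0.372 in edgeR's quasi-likelihood test, and all but Cldn34c1 passed the adjusted rule by DESeq2 and by edgeR with no filter on low counts. With the names exchanged Egfr (0.71), St3gal1 (-1.31) and Slc25a30 (-1.67) kept their direction (edgeR adjusted p = 0.0293, 0.00627 and 0.00411). Sik1 and Cldn34c1 then passed the unadjusted level in the same direction. Pim3, Cntfr, Trim63 and Pdp1 did not pass, and Dbp passed, higher.

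**Figure D1:**
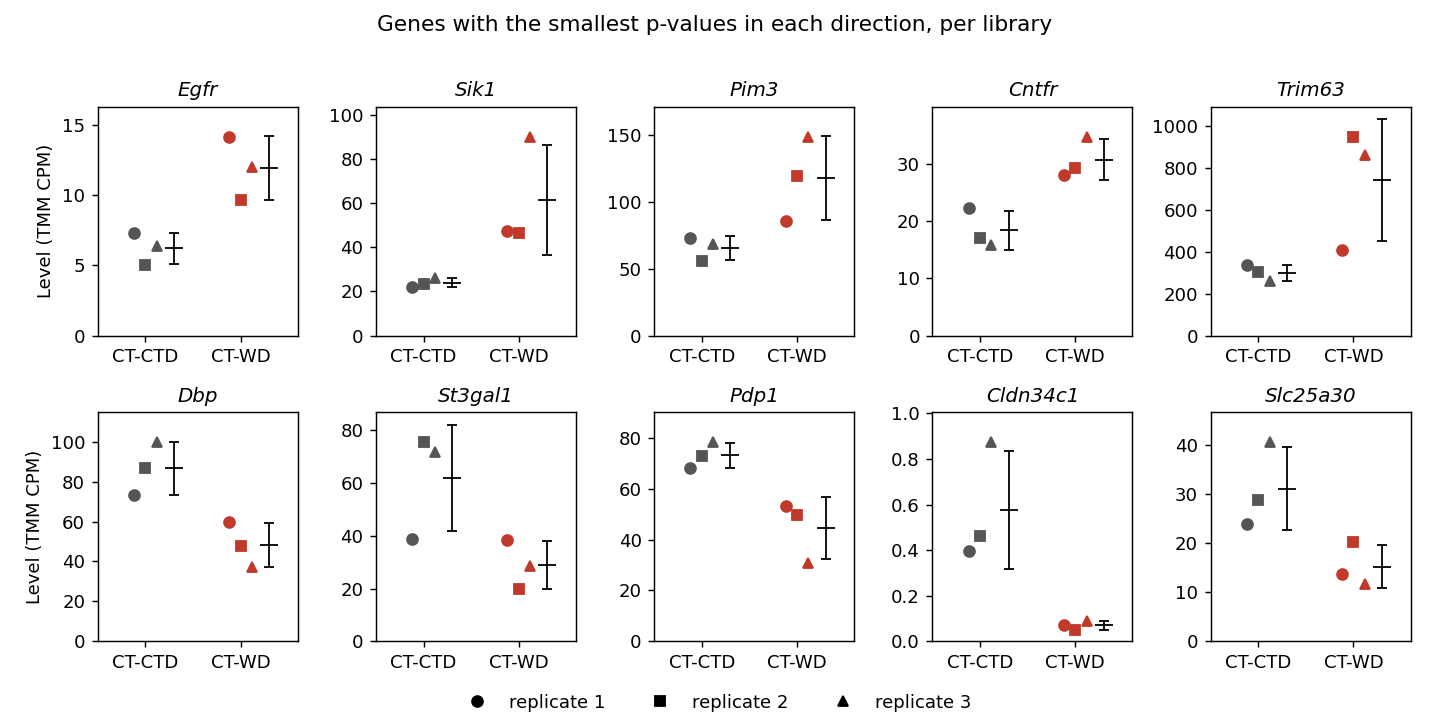
Level (TMM CPM, linear axes from 0) of the 5 genes with the smallest p-values higher on WD (top) and lower on WD (bottom), with 1 marker per library shaped by replicate number and the mean ± SD of 3 libraries beside it. Trim63 lies between 259 and 335 CPM on CTD and between 407 and 948 CPM on WD, and St3gal1 replicate 1 is nearly equal on both diets.

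The 6 libraries did not group by diet alone. On the leading principal component of their 1000 most variable genes (43.5% of the variance) replicate 1 of both diets stood apart, CT-CTD 1 at -24.2 and CT-WD 1 at -33.1 against 9.28 to 21.4 for the other 4. CT-WD 1 held the highest tendon, fibroblast, macrophage and epidermal marker levels, and CT-CTD 1 the highest adipocyte levels. CT-WD 3 held the highest heat shock and immediate early gene levels. Leaving out replicate 1 of both diets together, a choice made after the data were seen, gave 31 genes past the adjusted rule and 793 at the unadjusted level. Those 31 include St3gal1, Pim3, Trim63, Arntl, Klf15, Nfil3, Cebpd, Dbp, Foxo1, Glul, Myog, Srebf1, Sdc4, Rbp7 and Kdr.

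The tissue label was checked with deposited FPKM, which are per length and so allow genes to be compared. Acta1, the skeletal muscle actin, was at 30874, 30428 and 26373 FPKM on CTD and 29378, 33918 and 29597 FPKM on WD. Tnnt3, fast troponin T, was at 10936, 10558 and 9978 FPKM on CTD and 9856, 12873 and 11059.9 FPKM on WD. The atrial light chain Myl7 was listed at 0 in all 6 and albumin (Alb) stayed at or under 0.202 FPKM, so muscle genes were present throughout. Of the FPKM of 4 adult myosin heavy chains, fast type IIb Myh4 made 89.8, 91.1 and 87.5% on CTD and 88.8, 91.9 and 88.5% on WD. The slow chain Myh7 made 1.49, 1.05 and 1.596% on CTD and 1.46, 0.933 and 1.11% on WD, so Myh4 led in every library and the diets overlapped for both.

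**Figure D2:**
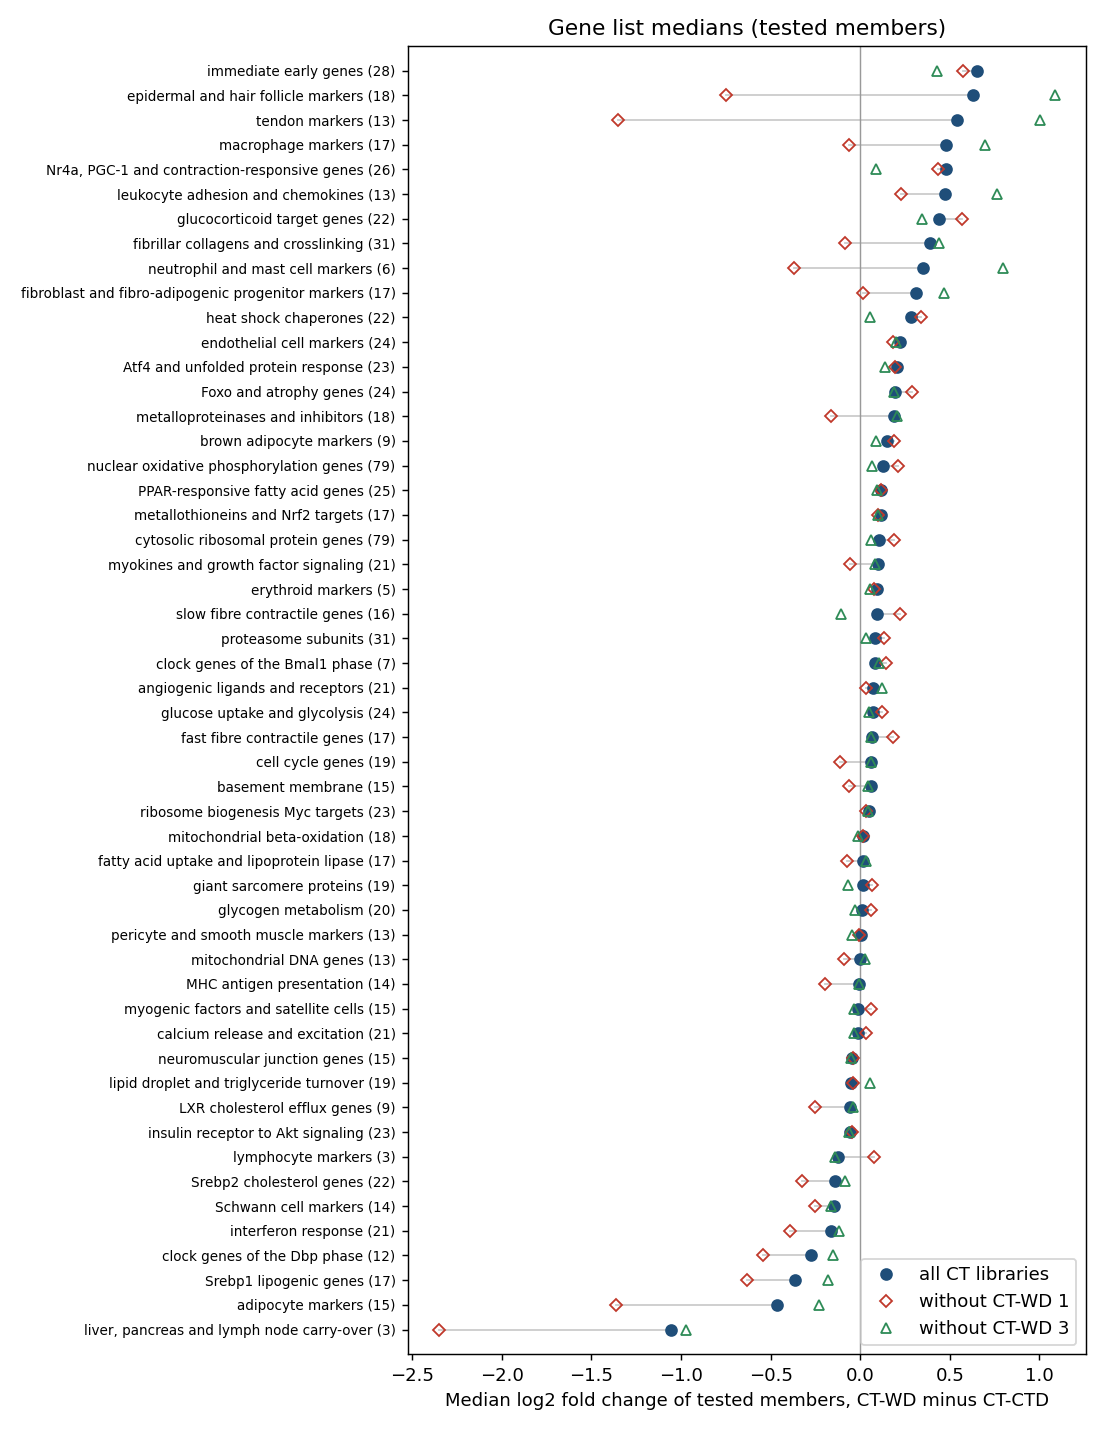
Median log2 fold change (CT-WD minus CT-CTD) of the tested members of each of the 52 gene lists, with their number in brackets, over all 6 CT libraries (filled) and without CT-WD 1 or CT-WD 3 (open). Tendon and epidermal markers move from above 0 to below 0 without CT-WD 1, and the heat shock median moves from 0.28 to 0.06 without CT-WD 3.

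The glucocorticoid receptor carries the hormonal signal of fasting and stress into muscle, and by the labels some of its targets were higher on WD. Of 22 tested members, 6 passed the unadjusted level, all higher, 16 did not, and 19 had positive values, with a median of 0.44 beside 0.01 for all genes. Klf15, a factor that drives amino acid breakdown, was at 55.3, 30.4 and 32.6 CPM on CTD and 52.9, 74.3 and 80.0 CPM on WD. Replicates 2 and 3 on WD were the highest, and CT-WD 1 lay just under CT-CTD 1 (0.81 ± 0.22). Cebpd, a stress-responsive factor, was at 56.7, 19.8 and 33.8 CPM on CTD and 51.8, 81.1 and 92.6 CPM on WD (1.03 ± 0.30), with the same overlap in replicate 1. Mt1, a metal-binding metallothionein also induced by glucocorticoids, was at 25.3, 18.6 and 30.5 CPM on CTD and 41.0, 41.1 and 74.8 CPM on WD, without overlap (1.08 ± 0.26). The repressor Zbtb16 was at 82.1, 79.5 and 98.8 CPM on CTD and 117, 136 and 181 CPM on WD, also without overlap (0.74 ± 0.17, and not past the unadjusted level without CT-WD 3 at 0.55). The mTORC1 inhibitor Ddit4 (1.73 ± 0.55, lost without CT-WD 3 at 1.08) and glutamine synthetase Glul passed too. The classical targets Fkbp5 (0.13, 0.77 without CT-CTD 3) and Tsc22d3 (0.41, past the level without CT-WD 1 at 0.67) did not. The median was 0.57 without CT-WD 1, where 9 members passed, and 0.24 without CT-CTD 2, the library with the lowest levels of this list. CT-WD 1 lay near CT-CTD 1 for the list. With the names of CT-WD and EC-Myc OE on CTD exchanged, the median was -0.23, Zbtb16 (-1.02), Mt1 (-0.43), Ddit4 (-0.24) and Cebpd (-0.21) turned sign, Klf15 was at 0.37, and Fkbp5 was at -2.29 (edgeR adjusted p = 0.00976).

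Foxo and atrophy genes cover the ubiquitin ligases and autophagy genes that Foxo factors raise when insulin signaling is low. Among 24 tested members 5 passed the unadjusted level, all higher, and 19 were positive, with a median of 0.20. Foxo1 itself was at 27.6, 16.2 and 26.0 CPM on CTD and 22.7, 63.4 and 44.6 CPM on WD. CT-WD 2 and 3 were the highest and CT-WD 1 lay within the CTD range, and the call was lost without CT-WD 2 (0.90 ± 0.27, then 0.53). The ligase Fbxo32 (atrogin-1) was at 632, 629 and 469 CPM on CTD and 539.6, 976 and 959.8 CPM on WD, with CT-WD 1 inside the CTD range, and passed by limma voom with quality weights and without CT-WD 1 (0.52 ± 0.26, then 0.75). Myog, the myogenic factor that activates both ligases after denervation, was at 5.85, 6.90 and 9.41 CPM on CTD and 7.95, 18.9 and 76.6 CPM on WD, led by CT-WD 3 (2.22 ± 0.54, and 0.85 without it). Gadd45a (0.68) and Runx1, denervation-responsive genes, passed as well, Gadd45a not without CT-CTD 1 (0.62), CT-CTD 3 (0.63) or CT-WD 3 (0.52). Foxo3 was at a log2 fold change of 0.19. With the names exchanged, the median was -0.06, Trim63 was at -0.27, Foxo1 at -0.24, Gadd45a at -0.55 and Fbxo32 at -1.04 (edgeR adjusted p = 0.0345).

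Clock genes are read in antiphase groups. The group that peaks with Dbp had 12 tested members, of which 1, Dbp, passed lower, and its median was -0.27, with 2 members positive. The repressor Nr1d1 (Rev-erb alpha) was at 68.1, 66.4 and 66.5 CPM on CTD and 77.4, 48.0 and 40.7 CPM on WD. CT-WD 1 was above all CTD libraries while CT-WD 2 and 3 were below them (-0.27 ± 0.21, and past the level at -0.60 without CT-WD 1). Per2 (-0.11) and Ciart (-0.56, past the level without CT-WD 1 at -0.88) did not pass. In the group that peaks with Bmal1, 2 of 7 passed, both higher, and the median was 0.08. Arntl (ENSMUSG00000055116, chr7:113207465-113314126, plus strand), which encodes Bmal1, was at 13.96, 9.92 and 9.37 CPM on CTD and 16.3, 24.1 and 37.3 CPM on WD, without overlap (1.22 ± 0.25). Nfil3, a repressor that competes with Dbp for its sites, was at 35.6, 30.6 and 32.6 CPM on CTD and 33.2, 99.4 and 226 CPM on WD. CT-WD 1 lay within the CTD range and CT-WD 3 was the highest (1.86 ± 0.45, and 1.01 without it). Npas2 (0.95, past the level without CT-CTD 1 at 1.54 or CT-WD 2 at 1.29) and Clock (-0.07) did not pass. The Dbp-phase median was -0.15 without CT-WD 3, the lowest library for it, and -0.54 without CT-WD 1, with 6 members past the unadjusted level, all lower. With the names exchanged the direction turned, with Nr1d1 at 1.37 (edgeR adjusted p = 0.00575) and Ciart at 1.42 (edgeR adjusted p = 0.0314). Dbp then passed the unadjusted level, higher, Nfil3 turned sign and lost its call, and Arntl and Per2 did not pass.

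Immediate early genes, which respond within minutes to contraction, stress or growth factors, gave the highest median of the 37 pathway lists. Of 28 tested, 14 passed the unadjusted level, all higher, 26 were positive, and in 10 the groups did not overlap (4.47% of all tested genes did so with CT-WD higher). The median was 0.65, and 0.43 without CT-WD 3. Btg2 (ENSMUSG00000020423, chr1:134075170-134079120, minus strand), an antiproliferative coregulator, was at 22.3, 20.5 and 17.2 CPM on CTD and 45.5, 29.6 and 80.8 CPM on WD. The groups did not overlap and CT-WD 3 was the highest (1.38 ± 0.29, and 0.91 without it). Fosb was at 1.78, 0.711 and 0.993 CPM on CTD and 9.002, 5.41 and 3.42 CPM on WD, with CT-WD 1 the highest (2.35 ± 0.58). Junb was at 18.9, 14.9 and 10.9 CPM on CTD and 36.0, 19.4 and 34.1 CPM on WD, just without overlap (1.004 ± 0.27), and Prdx2 lies antisense to it at a mean of 138 CPM. Atf3, a stress-induced repressor, was at 13.3, 18.5 and 10.7 CPM on CTD and 31.9, 12.2 and 307 CPM on WD, so its value rests on CT-WD 3 (3.05 ± 0.78, and 0.65 without it, where the call was lost). Fos was at 19.8, 9.71 and 7.15 CPM on CTD and 48.5, 16.9 and 66.8 CPM on WD, where CT-WD 2 lay below CT-CTD 1 (1.85 ± 0.52). Egr3, Ier2, Zfp36, Klf2, Klf4, Maff, Csrnp1 and Myc passed too, all higher. Egr1 (1.61 ± 0.60) passed, but not without CT-WD 1 (1.10) or CT-CTD 3 (1.45). With the names exchanged Junb (1.56), Egr3 (3.11), Ier2 (1.22) and Klf2 (1.35) were higher (edgeR adjusted p = 0.00704, 0.0137, 0.0386 and 0.0492). Btg2, Fosb, Egr1 and Csrnp1 then passed the unadjusted level, higher, and Atf3, Fos, Maff and Myc did not pass.

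Genes of the Nr4a receptors, PGC-1 and the response to contraction had 8 of 26 members past the unadjusted level, all higher, and 19 positive. Their median of 0.48 was 0.09 without CT-WD 3, where 3 passed. Nr4a3, an orphan receptor induced by exercise, was at 10.6, 4.06 and 5.76 CPM on CTD and 30.8, 7.05 and 44.6 CPM on WD. CT-WD 2 lay within the CTD range and the other WD libraries far above it (2.01 ± 0.47, and 2.46 without CT-WD 2). Ppargc1a, the PGC-1 alpha coactivator of mitochondrial genes, was at 89.7, 64.2 and 70.8 CPM on CTD and 162, 84.1 and 194 CPM on WD, with CT-WD 2 below CT-CTD 1 (0.97 ± 0.29). Nr4a1 was at 131, 136 and 221 CPM on CTD and 200.3, 270.2 and 335 CPM on WD (0.72 ± 0.25), and did not pass without CT-WD 3 (0.53) or CT-CTD 1 (0.58). Ankrd1, Rcan1, Mybph, Sik1 and Irs2, given with insulin signaling, passed too, all higher. The calcium-dependent carrier Slc25a25 followed the replicate numbers more than the diet, at 18.9, 101 and 165 CPM on CTD and 37.6, 233 and 424 CPM on WD. No source says that these numbers pair animals. Within each number the WD library was above the CTD library, while replicate 1 was far below the others on both diets (1.29 ± 0.74). It did not pass the unadjusted level in the fit without a block, passed in the blocked fit of 14 libraries (1.19), and passed the adjusted rule in the blocked fit of 6 (1.19, edgeR adjusted p = 0.0301). Without CT-WD 1 (1.79) or CT-CTD 3 (1.95) it passed the unadjusted level too, and it was at 0.51 without CT-WD 3 and 0.79 without CT-CTD 1.

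Promoters of the immediate early genes were read because these members moved together. CREB and ATF factors bind TGACG and, as a palindrome, TGACGTCA, and both were searched on both strands of RefSeq windows of GRCm38.p6 running from 250 bases before to 50 after a gene's start. TGACG was in 20 of 31 windows (64.5%, for 22 of 29 members with a window) and in 20.8% of all 32851 windows. TGACGTCA, which holds TGACG on each strand, was in 3 of 31 windows (Btg2, Dusp1 and Maff) and in 1.79% of all. In the Nr4a and contraction list TGACG was in 11 of 29 windows (37.9%). The window of Btg2, the member with the smallest p-value, lies at chr1:134079106-134079405 on the minus strand, and capitals mark TGACGTCA. A match describes the letters and is no evidence of binding.
Btg2: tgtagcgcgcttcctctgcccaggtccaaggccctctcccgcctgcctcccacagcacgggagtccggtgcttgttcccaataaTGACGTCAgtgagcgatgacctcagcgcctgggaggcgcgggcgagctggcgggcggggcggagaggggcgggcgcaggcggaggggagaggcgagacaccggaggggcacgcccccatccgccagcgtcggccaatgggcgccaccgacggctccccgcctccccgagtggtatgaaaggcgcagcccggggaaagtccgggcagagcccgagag

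Heat shock chaperones refold proteins under stress, and their values rested on CT-WD 3. All 22 members were positive and 5 passed the unadjusted level, all higher, with a median of 0.28. Without CT-WD 3 none passed, by edgeR, and the median was 0.06. Hspa1a, an inducible Hsp70, was at 2.21, 2.38 and 2.78 CPM on CTD and 3.29, 3.33 and 66.0 CPM on WD. CT-WD 3 stood far above the rest, and CT-WD 1 and 2 just above the CTD libraries (3.29 ± 0.84, and 0.43 without CT-WD 3). Its near-identical copy Hspa1b gave 9.33, 13.3 and 14.6 CPM on CTD and 19.3, 13.1 and 281 CPM on WD (3.07 ± 0.80, and 0.39 without CT-WD 3), and reads may be split uncertainly between them. The cochaperone Dnajb1 was at 6.68, 7.20 and 6.75 CPM on CTD and 8.53, 8.21 and 53.3 CPM on WD (1.76 ± 0.52, and 0.29 without CT-WD 3). Hspb1 (1.01, 0.21 without CT-WD 3) and Hsp90aa1 (0.71, 0.32 without it) also passed. Heat shock factors bind inverted GAA repeats, and GAANNTTC (N is any base, both strands) was in 12 of 23 promoter windows of the list (52.2%, 17 of 22 members with a window) and in 7.86% of all windows. The Hspa1a window is chr17:34972107-34972406 on the minus strand, from RefSeq GRCm38.p6, with the match in capitals, shown because Hspa1a had the largest positive value of the genes named by size.
Hspa1a: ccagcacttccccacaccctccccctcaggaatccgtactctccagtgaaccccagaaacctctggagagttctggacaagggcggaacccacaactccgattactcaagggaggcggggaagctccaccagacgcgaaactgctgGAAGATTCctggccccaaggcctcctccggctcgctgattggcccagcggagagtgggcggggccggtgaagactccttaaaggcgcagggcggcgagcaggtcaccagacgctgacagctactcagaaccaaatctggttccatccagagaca

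Other stress lists moved less. For Atf4 and the unfolded protein response, which slow translation and refold secretory proteins, 1 of 23 passed (Ddit4) and the median was 0.21 (0.14 without CT-WD 3), with Atf4, Ddit3, Trib3 and Hspa5 at 0.08 to 0.33. For metallothioneins and Nrf2 targets, which buffer metals and oxidants, 2 of 17 passed higher (Mt1 and Srxn1) and the median was 0.12 (0.05 to 0.17 with each library left out). Sulfiredoxin Srxn1 was at 54.4, 48.7 and 51.9 CPM on CTD and 73.2, 62.1 and 302 CPM on WD, led by CT-WD 3 (1.496 ± 0.42, and 0.39 without it, where the call was lost). Hmox1 (0.34) and Nqo1 (0.12) did not pass, and Mt2 had too few counts to be tested.

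Fatty acid genes that answer to PPAR receptors had 2 of 25 members past the unadjusted level, both higher, with 21 positive and a median of 0.12 (-0.02 without CT-CTD 2, 0.21 without CT-CTD 3). Of all tested genes 2.17% passed higher. Angptl4, a secreted inhibitor of lipoprotein lipase, was at 24.7, 23.9 and 19.0 CPM on CTD and 46.2, 36.9 and 29.2 CPM on WD. The groups did not overlap and CT-WD 1 was the highest (0.74 ± 0.29), and the call was lost without CT-WD 1 (0.55) or CT-CTD 3 (0.63). Ucp2, an inner-membrane carrier, was at 44.4, 30.2 and 39.0 CPM on CTD and 55.2, 49.7 and 68.1 CPM on WD (0.61 ± 0.16, lost without CT-CTD 2 at 0.47 or CT-WD 3 at 0.47). Pdk4, the kinase that blocks glucose oxidation when fat is burned, was at 3001, 2164 and 2412 CPM on CTD and 3142, 3703 and 3671 CPM on WD. Every WD library was above every CTD library, and the gene passed by limma voom with quality weights and without CT-CTD 1 (0.47 ± 0.25, then 0.61). With the names exchanged it passed, lower (-0.83). Ucp3 (0.37) did not pass. In the list of fatty acid uptake 1 of 17 passed (Angptl4) and the median was 0.02, the lipase Lpl, the transporter Cd36, Fabp3 and Acsl1 lying at -0.17 to 0.04.

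Of 18 beta-oxidation enzymes 0 passed the unadjusted level by edgeR, with a median of 0.02. Acadvl, Acadm and Hadha lay between 0.00 and 0.02. Cpt1b, the muscle carnitine transferase that admits fatty acids to mitochondria, was at 4.98, 5.56 and 7.03 CPM on CTD and 6.58, 8.60 and 10.8 CPM on WD, with CT-WD 1 below CT-CTD 3 (0.56 ± 0.25, past the level without CT-WD 1 at 0.72 or CT-CTD 3 at 0.71). Lipid droplet and triglyceride genes had 1 of 19 past the unadjusted level, Agpat2, lower (-0.75 ± 0.27), an acyltransferase whose call was lost without CT-CTD 1 (-0.27) or CT-WD 2 (-0.57). Egfl7 lies antisense to Agpat2 at a mean of 48.0 CPM. The droplet coats Plin2 and Plin5, Dgat1 and the lipase Pnpla2 lay at -0.08 to 0.16, beside a list median of -0.05. Without CT-WD 1, 3 members of the list passed higher and 1 lower.

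Lipogenic targets of Srebp1, which make fatty acids from glucose carbon, had mostly negative values, whose size rested on CT-CTD 1. Of 17 tested, 4 passed the unadjusted level, all lower, 13 did not, and the median was -0.36, with 2 positive. Srebf1 (ENSMUSG00000020538, chr11:60199089-60222581, minus strand), which encodes the factor, was at 96.0, 96.8 and 78.5 CPM on CTD and 80.6, 58.5 and 40.5 CPM on WD. CT-WD 2 and 3 were below all CTD libraries and CT-WD 1 was not (-0.59 ± 0.17), and Rai1 overlaps it at a mean of 35.6 CPM. Without CT-WD 1 its value was -0.87, and it missed the unadjusted level without CT-CTD 1 (-0.56), CT-CTD 2 (-0.54), CT-WD 2 (-0.58) or CT-WD 3 (-0.38). Fasn, fatty acid synthase, was at 404, 39.1 and 19.3 CPM on CTD and 50.8, 20.1 and 12.003 CPM on WD. CT-CTD 1 stood far above all others, and without it the call was lost and the log2 fold change was -0.08 in place of -2.47 ± 0.85, and -3.26 without CT-WD 1. Acaca (-0.88 ± 0.33, -0.15 without CT-CTD 1) and Thrsp (-1.32 ± 0.49, -0.06 without it) showed the same loss, and both also missed the level without CT-WD 3 (-0.79 and -1.16), Acaca also without CT-WD 2 (-0.76). The desaturase Scd1 was at 766, 352.1 and 95.3 CPM on CTD and 367, 67.7 and 52.3 CPM on WD, where each WD library was below the CTD library of its number (-1.32 ± 0.70), and it passed the unadjusted level in the blocked fit (-1.43) and without CT-WD 1 (-2.75) or CT-CTD 3 (-1.78), and not in the fit without a block. It was at -0.47 without CT-CTD 1 and -0.90 without CT-WD 3. The list median was -0.08 without CT-CTD 1, -0.18 without CT-WD 3 and -0.63 without CT-WD 1, where 7 passed, all lower.

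Adipocyte markers moved with the lipogenic genes. Their summed level was 2797, 2059 and 2191 CPM on CTD and 2234, 2407 and 2203 CPM on WD, with Car3, which muscle fibres also make, the most abundant at 1704, 1399.8 and 1473 CPM on CTD and 1374, 1415 and 1313 CPM on WD. Of 15 tested, 0 passed the unadjusted level by edgeR and the median was -0.46, 0.16 without CT-CTD 1 and -1.36 without CT-WD 1, where 7 passed lower and 1 higher. Adiponectin (Adipoq) was at 18.0, 10.6 and 5.56 CPM on CTD and 15.3, 3.87 and 1.78 CPM on WD. Replicate 1 was the highest on each diet, and each WD library was below the CTD library of its number (-0.68 ± 0.57). The droplet coat Plin1 gave 32.4, 18.2 and 7.66 CPM on CTD and 16.4, 4.59 and 2.58 CPM on WD, in the same order (-1.28 ± 0.60). Both passed the unadjusted level, lower, in the blocked fit of 14 libraries (Adipoq -1.01, Plin1 -1.47), and without CT-WD 1 (-2.02 and -2.44), Plin1 also without CT-CTD 3 (-1.66). The hormone Lep (-1.47, past the level without CT-CTD 3 at -1.85 or CT-WD 1 at -2.67, -0.34 without CT-CTD 2) and adipsin Cfd (-0.22, past the level without CT-WD 1 at -1.36, 0.63 without CT-CTD 1) did not pass. With the names exchanged Lep turned sign and passed the unadjusted level, higher, while Adipoq and Plin1 did not pass. The brown fat gene Ucp1 was at 19.4 CPM in CT-CTD 1 and at most 0.126 CPM in the other 5, and did not pass the filter. With no filter it passed the adjusted rule by edgeR at -10.34 (adjusted p = 0.00580), and so did its interaction with genotype (13.80, adjusted p = 0.0110). Of 9 tested brown adipocyte markers 1 passed, Ppargc1a, which fibres express, and the median was 0.15, with Cidea (-1.29, past the level without CT-CTD 2 at -1.78 or CT-CTD 3 at -1.66, 0.43 without CT-CTD 1), Elovl3 (-0.81, past the level without CT-CTD 1 at 3.60, -3.71 without CT-WD 1) and Cpt1a (0.25). The part of adipocyte RNA in the lipogenic values was not tested. In bulk tissue, fewer cells of a type and less RNA per cell cannot be told apart.

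Cholesterol genes differed little. Of 22 Srebp2 targets, which make and import cholesterol, 2 passed the unadjusted level, both lower, with a median of -0.14 (-0.32 without CT-WD 1, -0.01 without CT-WD 2, -0.02 without CT-CTD 1). Of all tested genes 0.88% passed lower. Mvd, a decarboxylase of the pathway, was at 8.46, 8.16 and 10.9 CPM on CTD and 7.74, 5.65 and 4.80 CPM on WD, without overlap (-0.59 ± 0.17), and its call was lost without CT-CTD 3 (-0.45), CT-WD 2 (-0.54) or CT-WD 3 (-0.45). Fdps was under 1 CPM in all libraries (-1.57), and lost without CT-CTD 1 (-1.001), CT-CTD 2 (-1.58), CT-WD 1 (-1.58) or CT-WD 3 (-1.16). The synthesis genes Hmgcs1 and Sqle lay at -0.10 to 0.13. None of 9 cholesterol efflux targets of LXR passed by edgeR (median -0.05), with Abca1, Abcg1, Mylip and Nr1h3 at -0.30 to 0.05, and Mylip passed, lower, without CT-WD 1 (-0.70).

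Insulin signaling from receptor to Akt had 1 of 23 members past the unadjusted level (3.05% of all tested genes passed), and a median of -0.06. Irs2, the adaptor that insulin itself represses, was at 30.6, 29.8 and 30.4 CPM on CTD and 42.6, 45.5 and 167 CPM on WD. The groups did not overlap, and CT-WD 3 was several times the others (1.49 ± 0.40, and 0.54 without it, where the call was lost). Insr (-0.08), Irs1 (0.52, and -0.03 without CT-WD 3) and Akt2 (0.11) did not pass. Glucose uptake and glycolysis had 1 of 24 past the level, the ubiquitous transporter Slc2a1, at 16.4, 7.82 and 9.89 CPM on CTD and 22.1, 11.1 and 21.1 CPM on WD. Its groups overlapped (0.67 ± 0.26, and 1.02 without CT-CTD 1), and the call was lost without CT-CTD 2 (0.46), CT-CTD 3 (0.58), CT-WD 1 (0.50) or CT-WD 3 (0.55). The list median was 0.07, and the insulin-regulated transporter Slc2a4, Hk2, Pfkm and Ldha lay at -0.06 to 0.11. In glycogen metabolism 0 of 20 passed by edgeR and the median was 0.01. Ppp1r3c, a glycogen-targeting phosphatase subunit, had the largest value of its key genes at 404, 240.5 and 613 CPM on CTD and 291, 989 and 583 CPM on WD, with overlap (0.57 ± 0.36, past the level without CT-WD 1 at 0.91 or CT-CTD 3 at 0.95, 0.06 without CT-WD 2 and 0.29 without CT-CTD 2), and Gys1, Pygm and Gbe1 lay between -0.13 and 0.14.

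Contractile gene lists had medians near 0. Of 17 fast, 16 slow, 21 calcium release and 19 giant sarcomere genes, 0 passed the unadjusted level by edgeR. Their medians were 0.07, 0.09, -0.01 and 0.01, with members at -1.03 to 0.21, -0.27 to 0.68, -0.16 to 0.14 and -0.29 to 0.69. The slow median was 0.22 without CT-WD 1 and -0.10 without CT-WD 3. The fast genes Myh4, Myh1, Myh2 and Tnnt3 lay at -0.09 to 0.10, and the slow genes Myh7, Tnnt1, Myl2 and Tnni1 at -0.24 to 0.30. The calcium channels and pump Ryr1, Cacna1s, Jph1 and Atp2a1 lay at -0.04 to 0.14, and Ttn, Neb and Syne1 at -0.06 to -0.04.

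Small positive values were common among genes of oxidative phosphorylation and the ribosome, with CT-WD 2 and 3 high for both lists and CT-WD 1 not. None of 79 nuclear genes of oxidative phosphorylation passed the unadjusted level by edgeR, yet 78 were positive, with a range of 0.00 to 0.40 and a median of 0.13 (0.07 without CT-WD 3, 0.08 without CT-CTD 1 and 0.21 without CT-WD 1, with 0.13 and 0.12 under other scalings). Ndufs1, Sdha, Cox4i1 and Atp5a1, subunits of complexes I, II, IV and V, lay at 0.05 to 0.13. The 13 mitochondrial DNA genes had a median of 0.00 and 0 past the level by edgeR, mt-Nd1, mt-Co1, mt-Cytb and mt-Atp6 lying at -0.04 to 0.02. Their share of all counts was 9.66% to 11.96% over the 6 libraries. Of 79 ribosomal protein genes 72 were positive, with a median of 0.11 (0.06 without CT-WD 3, 0.07 without CT-WD 2 and 0.19 without CT-WD 1, the lowest library for it). Those past the unadjusted level were Rpl41, lower at 179, 142 and 154 CPM on CTD and 50.9, 66.0 and 73.0 CPM on WD (-1.32 ± 0.32), and Rpl21, higher (0.70 ± 0.27, lost without CT-CTD 1 at 0.65, CT-CTD 3 at 0.48 or CT-WD 2 at 0.33). Both have many near-identical pseudogenes, so their counts are uncertain. Rplp0, Rps6 and Rpl3 lay between 0.07 and 0.18. Of 31 proteasome subunits 0 passed by edgeR and 24 were positive, with a median of 0.08 and Psma1, Psmb5, Psmc4 and Psmd1 at -0.01 to 0.12.

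**Figure D3:**
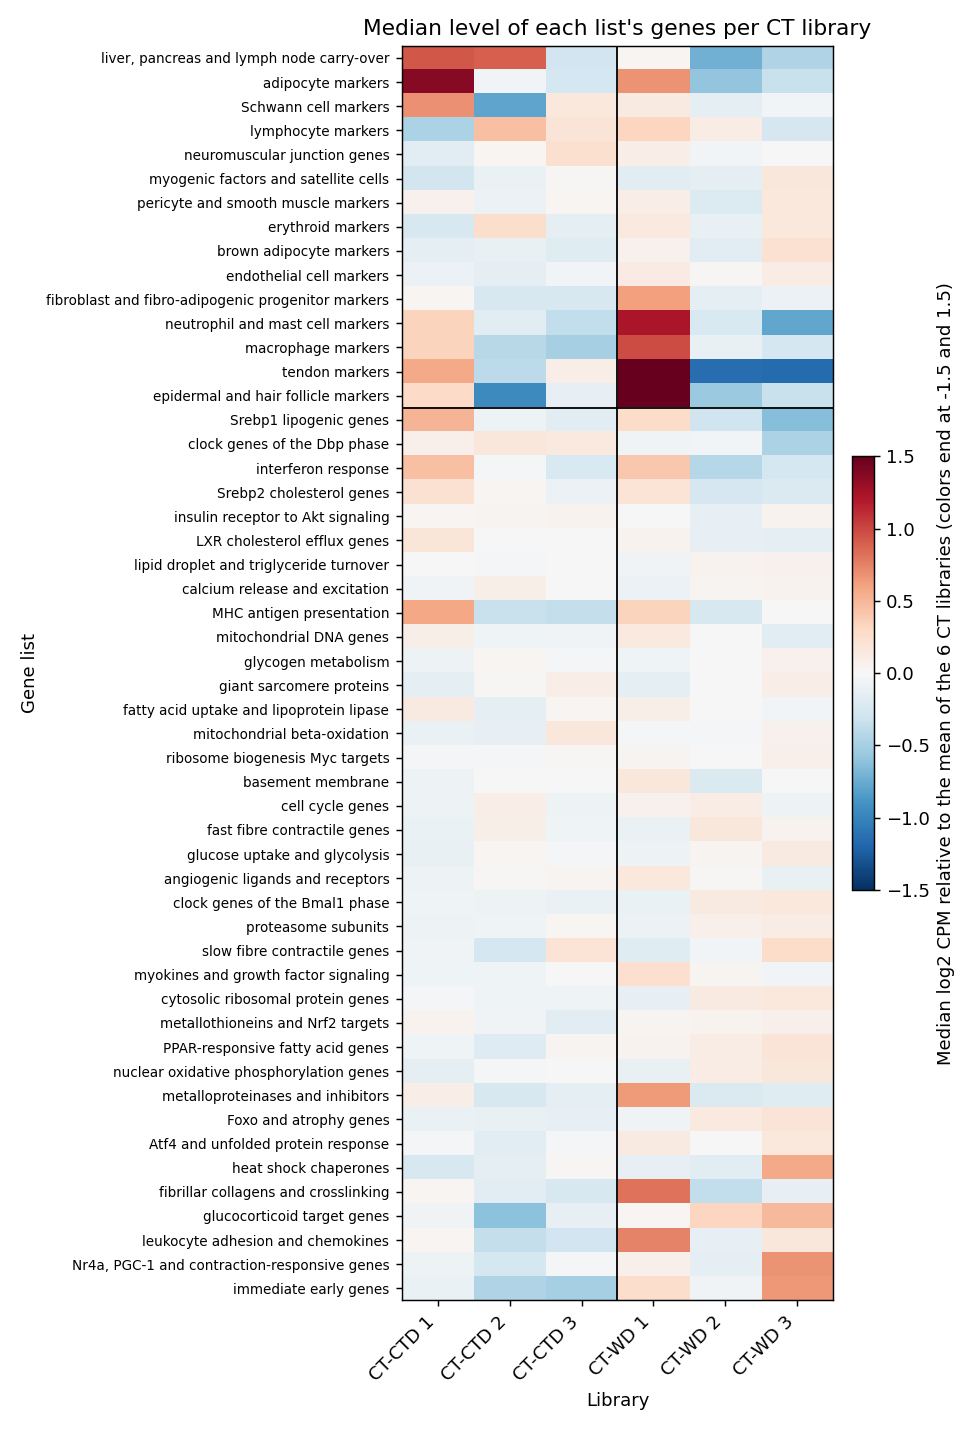
Median log2 CPM of the genes of each of the 52 lists in each CT library, relative to the mean of the 6 libraries (colors end at -1.5 and 1.5), with marker lists above the horizontal line and pathway lists below it. CT-WD 1 is the highest library for tendon, epidermal and macrophage markers and fibrillar collagens, CT-CTD 1 for adipocyte markers, and CT-WD 3 for heat shock chaperones.

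Fibrillar collagens and their crosslinking enzymes, the fibres of the muscle's connective tissue, were high in CT-WD 1 alone. Their summed level was 1479, 1292 and 1208 CPM on CTD and 2862, 1145 and 1292 CPM on WD. Of 31 tested, 30 were positive and 1 passed the unadjusted level, fibrillin Fbn1 (0.60 ± 0.27), not past it in the blocked fit (0.52) or without CT-CTD 2 (0.53), CT-CTD 3 (0.54) or CT-WD 1 (0.12). The median was 0.39, and -0.09 without CT-WD 1, where 1 passed higher and 4 lower. It was 0.25 in the blocked fit, 0.59 without CT-WD 2 and 0.44 without CT-WD 3, where 4 passed, all higher. Col1a1 was at 99.9, 69.4 and 72.9 CPM on CTD and 316, 53.2 and 49.0 CPM on WD. CT-WD 1 was above all, and CT-WD 2 and 3 were below all CTD libraries (0.79 ± 0.56, -0.66 without CT-WD 1, and past the level without CT-WD 2 at 1.18 or CT-WD 3 at 1.19). Col1a2 (0.71, -0.60 without CT-WD 1), Col3a1 (0.46, -0.18 without CT-WD 1) and Lox (0.41) did not pass. Basement membrane genes had a median of 0.06 over 15, with 0 past the level by edgeR and Col4a1, Col4a2, Lama2 and Nid1 at -0.02 to 0.30. Of 18 metalloproteinases and inhibitors, 2 passed higher, Mmp19 (1.14 ± 0.50) and Adamts4 (1.46 ± 0.65), with a median of 0.19, or -0.16 without CT-WD 1. Both genes were under 3 CPM, and their counts are uncertain. Mmp19 was lost without CT-CTD 2 (1.151), CT-CTD 3 (0.82), CT-WD 1 (0.57) or CT-WD 3 (1.10). Adamts4 was lost in the blocked fit (1.38) and without CT-WD 3 (0.82) or any CTD library (1.19, 1.64 and 1.596). Mmp2 (0.33), Timp1 (-0.11, 0.55 without CT-CTD 3 and -0.79 without CT-WD 1) and Timp3 (0.13) did not pass, and Mmp9 (0.78 ± 0.47) passed with the block (0.75) or without CT-WD 3 (1.16) and not in the fit of all libraries without a block. With the names exchanged Fbn1 (1.83), Col4a1 (0.89), Col4a2 (0.90) and Mmp2 (1.18) were higher (edgeR adjusted p = 0.00575, 0.0112, 0.00705 and 0.0425). Col1a1, Col1a2, Col3a1, Lox and Nid1 then passed the unadjusted level, higher, and Timp3 did not pass.

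Fibroblast, tendon and epidermal markers were also highest in CT-WD 1. Fibroblast markers summed to 1267, 1018 and 913 CPM on CTD and 2123, 1075 and 1077 CPM on WD, led by Gsn (606, 463 and 405 CPM on CTD and 968, 497 and 497 CPM on WD). Of 17 tested, 2 passed higher, Pdgfra (0.69 ± 0.21, lost without CT-WD 1 at 0.40) and Fbn1, and the median went from 0.31 to 0.02 without CT-WD 1, where 0 passed by edgeR. It was 0.48 without CT-WD 2 and 0.47 without CT-WD 3, where 5 passed, all higher. Ly6a, Dcn and Col1a1 lay between 0.27 and 0.79, and Dcn passed without CT-WD 3 (0.70). Tendon markers summed to 296, 147 and 209 CPM on CTD and 640.0, 122 and 180.1 CPM on WD. Over the 6 libraries together fibromodulin Fmod was the most abundant (123, 34.4 and 72.6 CPM on CTD and 287, 28.0 and 24.0 CPM on WD), while in CT-WD 3 Egr1 exceeded it (52.3 CPM). The tendon gene Tnmd was at 6.49, 2.64 and 2.22 CPM on CTD and 13.7, 1.79 and 1.33 CPM on WD, highest in replicate 1 of both diets (0.60, and past the level, lower, without CT-WD 1 at -1.28). Of 13 tendon markers 1 passed, Egr1, which is an immediate early gene too, and the median of 0.54 turned to -1.35 without CT-WD 1, where 8 passed, all lower. It was 0.03 in the blocked fit, 0.21 without CT-CTD 2, 0.99 without CT-WD 2 and 1.01 without CT-WD 3. Scx (0.00), Mkx (-0.25, past the level without CT-WD 1 at -2.46) and Col22a1 (-0.15) did not pass. Epidermal and hair markers summed to 83.2, 32.6 and 42.5 CPM on CTD and 156, 35.1 and 50.4 CPM on WD, with Krt27, Krt33a, Krt34 and Krt86 at 0 in all 6. Over the 6 libraries together Trp63 was the most abundant (10.1, 13.8 and 12.6 CPM on CTD and 8.93, 12.5 and 24.5 CPM on WD), but not in replicate 1. Basal keratin Krt5 was at 18.4, 0.418 and 2.66 CPM on CTD and 28.4, 2.13 and 1.07 CPM on WD, again highest in replicate 1 of both diets, where it exceeded Trp63. In CT-WD 1 Lor (15.4 CPM) and Krt10 (13.8 CPM) exceeded Trp63 too. Of 18 tested 1 passed, loricrin Lor (2.82 ± 1.27, 4.12 without CT-CTD 3), lost in the blocked fit (2.26) and without CT-WD 1 (0.55), CT-CTD 1 (2.47) or CT-CTD 2 (2.43). The median was 0.63, and -0.75 without CT-WD 1, with Krt5, Krt14, Krt10 and Krt1 at 0.58 to 1.81 (Krt10 past the level without CT-WD 2 at 1.29, Krt14 without CT-CTD 1 at 3.62). Without CT-WD 1 they were at -2.18, -1.85, 0.23 and -1.04. The part of these tissues in the collagen values was not tested.

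Leukocyte adhesion molecules and chemokines, by which endothelium and macrophages recruit white cells, had 6 of 13 tested members past the unadjusted level, all higher, with 5 of 13 not overlapping between the diets and a median of 0.48. Of all tested genes 2.17% passed higher and 4.47% did not overlap with CT-WD higher. Their summed level overlapped, at 210, 252 and 251 CPM on CTD and 268, 188 and 260 CPM on WD. Cxcl12 made 50.9% of it, at 91.6, 160 and 149 CPM on CTD and 110, 83.4 and 133 CPM on WD, with overlap. Icam1 (ENSMUSG00000037405, chr9:21015985-21028817, plus strand) was at 3.36, 2.80 and 2.98 CPM on CTD and 5.75, 4.59 and 6.13 CPM on WD. The groups did not overlap, all WD libraries were similar, and the call held with each library left out (0.85 ± 0.18, 0.77 to 0.96). With the names exchanged Icam1 was at 0.77 (edgeR adjusted p = 0.0287). Ccl9 was at 4.19, 2.30 and 2.62 CPM on CTD and 7.99, 4.20 and 5.11 CPM on WD, just without overlap (0.93 ± 0.30, lost without CT-WD 1 at 0.62). Ccl6 (1.09 ± 0.40) overlapped and was lost without CT-WD 1 (0.48), CT-CTD 2 (0.84) or CT-CTD 3 (0.93). Ccl8, Ccl2 and Cxcl1 passed at levels of at most 1.33 CPM, Ccl8 at 0.119, 0.167 and 0 CPM on CTD and 1.30, 0.242 and 0.178 CPM on WD (2.59 ± 0.97, 3.21 without CT-CTD 2, lost without CT-WD 1 at 1.10 or CT-CTD 3 at 2.01). Ccl2, the monocyte chemoattractant, was at 0.0791, 0.251 and 0.238 CPM on CTD and 0.832, 0.193 and 1.33 CPM on WD (2.04 ± 0.83, lost without CT-WD 3 at 1.46 or CT-CTD 1 at 1.66). Vcam1 did not pass (-0.25), and Sele had too few counts to be tested. Without CT-WD 1 the list had 2 past the level and a median of 0.23, against 0.90 without CT-CTD 1 and 0.77 without CT-WD 3.

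Macrophage markers were highest in CT-WD 1. Their summed level was 107, 66.6 and 61.7 CPM on CTD and 173, 86.0 and 71.2 CPM on WD, led by Lyz2 (28.3, 14.9 and 15.4 CPM on CTD and 44.3, 22.9 and 19.0 CPM on WD). All 17 tested members were positive and 3 passed the unadjusted level, all higher, with a median of 0.48, or -0.06 without CT-WD 1, where 0 passed by edgeR. It was 0.84 without CT-CTD 1 and 0.70 without CT-WD 3, where 5 passed. The receptor Cd14 (1.07 ± 0.38) was lost without CT-WD 1 (0.63) or CT-CTD 3 (0.86). The complement gene C1qb, at 6.9998, 4.39 and 4.01 CPM on CTD and 12.9, 7.10 and 5.51 CPM on WD (0.74 ± 0.28), was lost without CT-WD 1 (0.29), CT-CTD 2 (0.64) or CT-CTD 3 (0.59). C1qa (0.60 ± 0.26) was lost without the same libraries (0.17, 0.51 and 0.46) and in the blocked fit (0.55). Adgre1, Cd68, Csf1r and Mrc1 lay at 0.17 to 0.71 and did not pass, except Mrc1, which was at -0.06 without CT-WD 1, the library that carries it, and passed without CT-CTD 1 (1.04), CT-WD 2 (0.97) or CT-WD 3 (0.997). The part of macrophage RNA in the chemokine values was not tested.

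Other immune signals were small. Of 21 interferon-stimulated genes 0 passed by edgeR and the median was -0.16 (0.00 without CT-CTD 1, -0.39 without CT-WD 1, where 4 passed, all lower), with Isg15, Ifit1 and Irf7 at -0.14 to 0.38. Of 14 antigen presentation genes 1 passed, the class II chain H2-Aa, near 1 CPM (0.93 ± 0.39), lost without CT-CTD 2 (0.68), CT-CTD 3 (0.81), CT-WD 1 (0.79) or CT-WD 2 (0.91). The list's median was 0.00 (0.56 without CT-CTD 1), and H2-K1, H2-D1 and Cd74 lay between -0.23 and 0.20. Lymphocyte markers summed to 357, 676 and 568 CPM on CTD and 343, 535 and 592 CPM on WD, nearly all of it the immunoglobulin chain Ighm (355, 675 and 567 CPM on CTD and 341, 534 and 590.5 CPM on WD). Only 3 of 18 had enough counts for a test, Cd3e, Cd79a and Cd4 had not, Ms4a1 was at 0, and the median was -0.12 with 0 past the level by edgeR. Of 12 neutrophil and mast cell markers 6 could be tested and 0 passed by edgeR (median 0.35, -0.37 without CT-WD 1). Ly6g was at 0, S100a8 and S100a9 were too low to test, and the mast cell proteases Cma1 and Mcpt4 were at 0.33 and 0.37 (-0.39 and -0.41 without CT-WD 1). Erythroid markers, a measure of blood in the tissue, had a median of 0.10 over 5 and 0 past the level by edgeR. The globin gene Hba-a1 was at 124, 152 and 105 CPM on CTD and 148, 176 and 139 CPM on WD, with overlap (0.28, and Hbb-bs 0.11, Hbb-bt 0.08). Globin genes share reads with near-identical copies, and Hba-a2 could not be tested.

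Endothelial markers had 2 of 24 members past the unadjusted level, both higher (2.17% of all tested genes passed higher), 22 positive and a median of 0.23. Their summed level was 856, 844 and 899 CPM on CTD and 1015, 966 and 1097 CPM on WD, with Eng the most abundant over the 6 libraries together. Pecam1 exceeded Eng in CT-CTD 1 (83.5 against 67.9 CPM) and in CT-WD 1 (102.6 against 82.6 CPM). Rbp7, a retinol-binding protein of capillary endothelium, was at 11.7, 10.3 and 14.02 CPM on CTD and 14.3, 22.9998 and 27.5 CPM on WD, without overlap (0.84 ± 0.20). The tight junction gene Cldn5 was at 15.6, 15.8 and 12.6 CPM on CTD and 30.7, 21.99 and 20.5 CPM on WD, without overlap and highest in CT-WD 1 (0.74 ± 0.20, lost without CT-WD 1 at 0.54). The VEGF receptor Kdr went the other way, at 30.1, 58.6 and 55.6 CPM on CTD and 36.7, 35.7 and 36.2 CPM on WD. CT-CTD 1 lay below the WD range and CT-CTD 2 and 3 above it, and the gene passed without CT-CTD 1 (-0.41 ± 0.18, then -0.67). Pecam1 (0.22), Cdh5 (0.05) and Tie1 (0.07) did not pass. Pericyte and smooth muscle markers had a median of 0.01 over 13 with 0 past the level by edgeR, and Acta2, Myh11, Pdgfrb and Rgs5 lay at -0.04 to 0.19. Angiogenic ligands and receptors had 0 of 21 past the level by edgeR and a median of 0.07, with Vegfa at 0.16, Vegfb at -0.05 and Apln (-0.38, -0.97 without CT-WD 1).

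Myogenic factors and satellite cell genes, which keep and renew the fibres, had 3 of 15 past the unadjusted level higher (Myog, Sdc4 and Myc) and 1 lower (Myh8), with a median of -0.01. Sdc4, a syndecan of satellite cells and many other cells, was at 30.8, 26.9 and 36.7 CPM on CTD and 35.9, 53.9 and 80.1 CPM on WD, with CT-WD 1 inside the CTD range (0.84 ± 0.21, lost without CT-WD 3 at 0.51). The neonatal myosin Myh8 was at 4.47, 19.8 and 5.48 CPM on CTD and 3.04, 3.62 and 4.71 CPM on WD, so that its value rests on CT-CTD 2 (-1.39 ± 0.46, and -0.39 without it, where the call was lost). Pax7 (-0.33, -0.92 without CT-WD 1), Myod1 (0.13) and Myf5 (-0.23) did not pass. At the neuromuscular junction 1 of 15 passed, the fetal receptor subunit Chrng, lower and under 1 CPM (-1.27 ± 0.57, -2.31 without CT-WD 1), lost without CT-CTD 2 (-0.95), CT-CTD 3 (-1.31), CT-WD 2 (-1.03) or CT-WD 3 (-0.89). The list median was -0.04 and Chrne, Musk, Chrna1 and Rapsn lay at -0.09 to 0.19. Schwann cell markers had 0 of 14 past the level by edgeR and a median of -0.15 (0.23 without CT-CTD 1, -0.49 without CT-CTD 2), with Mbp at -0.14 and Sox10 at 0.12.

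Growth lists showed little. Of 19 cell cycle genes 1 passed, the mitotic kinase Aurka, higher (0.82 ± 0.23, lost without CT-WD 3 at 0.49), and the median was 0.06. Mki67 was under 1 CPM in every library (-1.22, past the level without CT-WD 1 at -2.94), Top2a (-0.06, -0.998 without CT-WD 1) and Ccnd1 (-0.45, past the level without CT-CTD 1 at -0.76 or CT-WD 1 at -0.75) did not pass, and Ccnb1 could not be tested. Ribosome biogenesis genes driven by Myc had 0 of 23 past the level by edgeR and a median of 0.05, Ncl, Npm1, Fbl and Nop56 lying at -0.10 to 0.10. Of 21 myokine and growth factor genes 2 passed, both higher, Angptl4 and the follistatin-like inhibitor Fstl3 (0.89 ± 0.31, lost without CT-CTD 1 at 0.64), with a median of 0.10. Myostatin (Mstn), Fndc5, Igf1 and Fst lay at -0.36 to 0.31, and Igf1 passed, lower, without CT-WD 1 (-0.60). Carry-over from liver, pancreas or lymph node was low. Of 13 markers 3 could be tested, Glycam1, Madcam1, Prss2 and Ttr were at 0, Apoa1 and Cr2 were too low to test, Alb was at -0.53 (0.09 without CT-CTD 1), and the chemokine Ccl21a passed, lower, at 0.435, 0.711 and 1.87 CPM on CTD and 0.253, 0.193 and 0 CPM on WD (-2.68 ± 0.88, -3.36 without CT-WD 1, and lost without CT-CTD 3 at -1.87). The median of those tested was -1.05.

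Across all tested genes, 149 passed the unadjusted level with no overlap between the diets, 106 higher and 43 lower, while the groups did not overlap in 9.63% of all tested genes (CT-WD higher in 4.47%, lower in 5.16%). The 12 with the largest higher values at a mean of at least 1 CPM were Hspa1a, Fosb, Csrnp1, Dnajb1, Cyp1b1, Plk3, Maff, Srxn1, Irs2, Cd33, Ism1 and Btg2. Csrnp1 (1.77 ± 0.47, 0.63 without CT-WD 3), Maff (1.53 ± 0.40, 0.70) and the stress kinase Plk3 (1.58 ± 0.49, 0.93, where its call was lost, and 2.19 without CT-CTD 1) had their highest level in CT-WD 3, the second value being that without it. Cyp1b1, a monooxygenase of the Ahr pathway, was even on WD, at 1.03, 0.335 and 0.318 CPM on CTD and 1.81, 1.74 and 1.56 CPM on WD (1.59 ± 0.48, and 2.36 without CT-CTD 1). Cd33, a sialic acid receptor of myeloid cells, was at 0.672, 0.711 and 0.794 CPM on CTD and 3.29, 1.55 and 1.20 CPM on WD, highest in CT-WD 1 (1.48 ± 0.33, 0.91 without it). Ism1 (1.40 ± 0.53) was lost without CT-WD 1 (0.45) or CT-CTD 3 (1.18).

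The 12 with the largest lower values were Rpl41, Ankrd37, St3gal1, Csf2rb2, Nhs, Slc25a30, Fam78a, Ddx11, Epha7, Gpr19, Dbp and the pseudogene Rpl21-ps10. Csf2rb2, a cytokine receptor subunit, was at 5.14, 9.41 and 7.66 CPM on CTD and 5.13, 3.19 and 2.36 CPM on WD. CT-WD 1 almost equalled CT-CTD 1, and the others were apart (-1.04 ± 0.29). Nhs (-1.04 ± 0.30) and Fam78a (-0.91 ± 0.24) kept the call with each library left out, at -1.39 to -0.79 and -1.27 to -0.67, and Fam78a overlaps Nup214 on the other strand (mean 18.7 CPM). Ankrd37, a hypoxia-induced gene, was lower (-1.13 ± 0.39), lost without CT-WD 3 (-0.78), and overlaps Ufsp2 (mean 23.9 CPM). Ddx11 (-0.85 ± 0.30) was lost without CT-CTD 2 (-0.52). Epha7 (-0.85 ± 0.34) was lost without CT-CTD 2 (-0.68), CT-CTD 3 (-0.83) or CT-WD 3 (-0.60), and Gpr19 (-0.85 ± 0.35) without CT-CTD 1 (-0.52), CT-WD 2 (-0.73) or CT-WD 3 (-0.69).

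Myc, Socs3, Rrad, Rabif and Acsl3 were read by name, whatever their values. Endogenous Myc was at 4.59, 6.11 and 4.45 CPM on CTD and 8.71, 4.93 and 13.3 CPM on WD. CT-WD 2 lay within the CTD range and the other WD libraries above it (0.84 ± 0.33), and the call was lost without CT-WD 3 (0.44), CT-CTD 1 (0.76) or CT-CTD 3 (0.75). The cytokine inhibitor Socs3 was at 7.79, 3.18 and 1.51 CPM on CTD and 9.69, 3.53 and 7.91 CPM on WD, with overlap (0.77 ± 0.52), and passed without CT-CTD 1 (1.59). The small GTPase Rrad (3.36, 29.6 and 11.4 CPM on CTD and 22.9, 5.27 and 19.4 CPM on WD) varied as widely within each diet as between them (0.11 ± 0.54), and passed without CT-CTD 2 (1.11). Rabif, a chaperone of Rab GTPases, did not differ beyond its spread (0.10 ± 0.27). Acsl3, an acyl-CoA synthetase of lipid droplets, was at 39.2, 29.1 and 42.4 CPM on CTD and 23.6, 35.7 and 20.3 CPM on WD. Lower in CT-WD 1 and 3 and not in CT-WD 2, it did not pass in all 6 (-0.48 ± 0.17), and passed without CT-WD 2 (-0.75) or CT-CTD 2 (-0.62). With the names exchanged Acsl3 was at -0.96 (edgeR adjusted p = 0.00730) and Rabif at -1.14 (edgeR adjusted p = 0.0292). Myc and Socs3 did not pass the unadjusted level there.

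Whether the diet acted differently in EC-Myc OE muscle was tested as the difference between the diet effects, which share no libraries. No gene passed an adjusted p under 0.05 by edgeR (smallest 0.675), 915 had an unadjusted p under 0.05 at any fold, and DESeq2 called 3, Mylk4, Acsl3 and Gm11716 (Mylk4 and Gm11716 named after their values were seen). By edgeR, 1 passed without CT-WD 1 (Cnksr3, at -1.505, also named after its value was seen) and 1 without CT-WD 2 (Acsl3, 1.39). With no filter on low counts 29 passed by edgeR, among them Sik1, St3gal1 and Acsl3 (edgeR adjusted p = 0.00677 each) and Trim63 (0.0340). Egfr and Dbp were not among them. With replicates 2 and 3 alone 1 passed, St3gal1 (edgeR adjusted p = 0.00605). Side by side, Trim63 was at 1.30 in CT and 0.14 in EC-Myc OE, Sik1 at 1.36 and -0.04, and Egfr at 0.94 and -0.05. St3gal1 was at -1.10 and 0.22, Dbp at -0.84 and -0.12, and Acsl3 at -0.48 and 0.65, an interaction of 1.12 with an edgeR adjusted p of 0.675. By the labels, Zbtb16 was higher on WD in both, 0.74 and 1.23, and in EC-Myc OE it passed the adjusted rule (edgeR adjusted p = 0.00559). That EC-Myc OE value, like the one of Acsl3, equals the size the study gives between genotypes on WD. With the names exchanged the CT value of Zbtb16 was -1.02 (edgeR adjusted p = 0.00575). Rpl41 was lower in both (-1.32 and -0.75). The immediate early list had a median of 0.65 in CT and -0.05 in EC-Myc OE, the glucocorticoid list 0.44 and 0.12, the Srebp1 list -0.36 and 0.07, and oxidative phosphorylation 0.13 and -0.17. These medians are descriptions, and no list was tested for a difference between genotypes.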

How the data were processed

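Skeletal muscle RNA was sequenced after poly-T selection. Per the submitters' notes, reads were aligned to mm10 with HISAT2 2.0.5 and counted with featureCounts 1.5.0-p3, and the count values were used as the authors deposited them. The FPKM values, counts divided by gene length and library size, were also used as deposited, and only to compare genes with each other or as an alternative.

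Analyses were run in R 4.3.3 with edgeR 4.0.16, limma 3.58.1 and DESeq2 1.42.0. Counts of 14 libraries in 4 groups were filtered by filterByExpr, scaled by TMM and fitted by quasi-likelihood, and the code was tested on simulated data. Coordinates are those of the deposited table, of which 98.3% equal GENCODE M21. A symbol held by several identifiers was read at the identifier with the most counts. The diet effect was tested within CT, and its difference from EC-Myc OE as an interaction. Alternatives changed the libraries, scaling, filter, tool, replicate block and each library left out in turn.

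Of the 52 gene lists (37 pathway, 15 cell type marker), key genes and members past the unadjusted level are named, and up to 4 of those members with the smallest p-values are described. Also named are the 5 genes per direction with the smallest p-values, the 12 per direction with the largest differences among those past the level, without overlap and with a mean of at least 1 CPM (names of predicted genes left out), and 7 genes picked by name (Myc, Zbtb16, Acsl3, Rabif, Rrad, Socs3 and Slc25a25). Some key genes are not reported here. The members and lists were chosen with earlier results of these data known.

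The main fit did not pair the libraries, and replicate numbers served as a block in alternative fits alone. Deviations from the group means correlated for every pair with the same number (r = 0.385, 0.123 and 0.203). That comes from the same data, and CT-WD 3 with CT-CTD 2 gave r = 0.142, above the 0.123 of CT-WD 2 with CT-CTD 2. No source says that the numbers pair animals, so blocked values do not show a pairing. The library names set replicate 1 of both diets apart from replicates 2 and 3, without pairing these. With that as covariate 508 genes passed the unadjusted level. In the labels CT groups have 3 libraries and EC-Myc OE groups 4, while the study describes group sizes that differ by diet. The exchanged names give the sizes that the study describes. The study's fold changes for Zbtb16 and Acsl3 between genotypes on WD also equal the labelled diet values of EC-Myc OE. The labels were kept, and exchanged names were tried as an alternative.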

Additional observations from a re-analysis of the deposited data

How the results depend on the processing

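The number of genes past the adjusted rule, 0 by edgeR in all 14 libraries with 1125 at an unadjusted p under 0.05, was 0 to 41 with each library left out. It was 1 with the replicate block in the 6 CT libraries alone, 88 with no filter on low counts, 26 by DESeq2 (no filter, 27882 genes), 3 by limma voom with quality weights, 295 with the names of CT-WD and EC-Myc OE on CTD exchanged, and 31 with replicates 2 and 3 alone, an alternative chosen after seeing the data. The number at the unadjusted level, 471, was 413 to 860 with each library left out, 312 in the 6 CT libraries alone, 832 with no filter, 103 by limma on log2(FPKM + 1), 1101 with exchanged names and 793 with replicates 2 and 3 alone, and within 1.5 times 471 otherwise. Genes past the adjusted rule for the interaction numbered 0 to 1 with each library left out, 3 by DESeq2, 29 with no filter and 1 with replicates 2 and 3 alone, against 0 by edgeR. The causes were not tested. In the 6 CT libraries alone, without the spread of EC-Myc OE, 229 of 242 named genes kept direction and call and 13 lost the call. Those 13 were Acaca, Agpat2, C1qa, C1qb, Chrng, Epha7, Fbn1, Gpr19, H2-Aa, Mmp19, Rpl21, Slc2a1 and Thrsp. The replicate block over 14 libraries gave 489 at the unadjusted level and 0 past the adjusted rule by edgeR. Beside the 9 named genes whose blocked value is printed above, it changed no other call of a named gene. With exchanged names 85 of 250 named genes turned sign and 112 kept direction and call. Of the 85, 33 were past the unadjusted level under either set of names, Abcg1 (0.61), Agpat2 (0.0595), Alb (3.30), Angptl4 (-0.0232), Apln (1.06), Ccl21a (0.15), Ccnd1 (0.63), Cebpd (-0.21), Ciart (1.42), Cntfr (-0.28), Dbp (0.60), Ddit4 (-0.24), Fbxo32 (-1.04), Fkbp5 (-2.29), Foxo1 (-0.24), Gadd45a (-0.55), Lep (1.95), Mt1 (-0.43), Musk (-0.99), Mvd (0.25), Myod1 (-0.69), Nfil3 (-0.65), Nr1d1 (1.37), Pdk4 (-0.83), Ppp1r3c (-1.04), Rabif (-1.14), Rbp7 (-0.38), Rpl21 (-0.28), Sdc4 (-0.0316), Srebf1 (0.19), Trim63 (-0.27), Ucp3 (-1.38) and Zbtb16 (-1.02). With each library left out, Elovl3 was at -3.71 (without CT-WD 1) to 3.60 (without CT-CTD 1), against -0.81, and Tnmd at -1.28 (without CT-WD 1) to 1.23 (without CT-CTD 1), against 0.60. The cause was not tested. Of the 250 named genes, 248 kept direction and call under RLE and under upper-quartile scaling and 246 under DESeq2, while 190 did under limma voom, 175 without CT-WD 1 and 191 without CT-WD 3. Of 52 list medians, 22 moved by more than the spread between replicates with exchanged names, 10 without CT-WD 1 and 9 with replicates 2 and 3 alone. At 21833839 to 26518734 counts per library with 3 libraries per CT group, genes under 1 CPM rest on few reads.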
